A study of Mus musculus with 30 samples.

Results

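The genes described here carry cells through mitosis and chromosome segregation. The 51 members were taken as a list of gene names, drawn up with earlier results of these data known, from the 37991 gene identifiers of the count table, of which 20439 held any count. All 51 were found and all 51 passed the filter on low counts. RNA came from cells sorted from the spleens of 12 female mice aged 9.4 to 15.7 weeks, namely 6 wild-type (WT) B6 mice and 6 TLR7.1 mice. TLR7.1 is a line that overexpresses Tlr7, an endosomal receptor for single-stranded RNA. Ly6C-high monocytes (Mono) and red pulp macrophages (RPM) were taken from every mouse, and inflammatory hemophagocytes (iHPC), named for engulfing blood cells, from the TLR7.1 mice alone. This gives 5 groups of n = 6, with Mono and RPM of either genotype and iHPC of TLR7.1 mice. The shared gate kept live CD45.2+ cells and dropped those with SiglecF or Ly6G. Within it, Mono carried Ly6C, Ccr2 and CD11b. The RPM gate took cells without Ly6C, low in CD31, high in VCAM, positive for F4/80 and at most intermediate in CD11b. The iHPC gate took cells without Ly6C, high in CD31, low in VCAM and F4/80, and positive for CD11b. Each library held the RNA of 500 cells, and no iHPC library of a WT mouse was analysed here.

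Mitosis starts when the kinase Cdk1, bound to a B-type cyclin, is switched on. Condensin and topoisomerase then compact and untangle the chromosomes, kinetochores tie them to spindle microtubules, and the spindle checkpoint holds back the anaphase-promoting complex (APC/C) until every chromosome is attached. The APC/C then has securin and cyclin B destroyed, which frees separase to cut cohesin, and the central spindle guides the cleavage furrow. Most of these transcripts accumulate late in the cell cycle. They are low in cells that do not divide, as mature tissue macrophages and circulating monocytes mostly do not, while the bone marrow precursors of monocytes do.

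Levels are normalised CPM, each count divided by its library's TMM-adjusted total, and fold changes are log2 values with their standard error (SE) from edgeR's quasi-likelihood test. A gene was called at a Benjamini-Hochberg adjusted p under 0.05 over 11030 genes. Total counts ran from 1157446 to 1932427 in Mono, 95002 to 1511480 in RPM and 292507 to 1420486 in iHPC. Tlr7 ran from 107 to 384 CPM in the WT libraries and from 497 to 1531 CPM in those of TLR7.1 mice, so the genotypes did not overlap. Of the labelled types, summed classical monocyte markers ran from 5195 to 7234 CPM in Mono libraries against at most 275 in RPM, and summed red pulp macrophage markers from 6461 to 14431 CPM in RPM libraries against at most 511 in Mono. The iHPC libraries held 616 to 885 CPM of the classical monocyte and 1135 to 2166 CPM of the red pulp macrophage markers. Their Ly6C-low monocyte markers summed to 3196 to 4455 CPM, against at most 1776 CPM in the other groups. In sorted bulk RNA, more dividing cells and more mitotic RNA per dividing cell cannot be told apart.

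Because the members move together in what follows, their promoters are shown first. RefSeq promoter windows on GRCm38.p6, 250 bases before to 50 bases after the gene start, were matched for 43 of the 51 members. Those not matched were Aurkb, Ccna2, Dlgap5, Foxm1, Incenp, Kif20a, Smc4 and Tpx2. The windows were searched on both strands for TTTGAA and TTCGAA, known as the letters of the cell cycle homology region that keeps late cell cycle genes silent in resting cells, and for CCAAT, the site of NF-Y. TTTGAA lay in the windows of 32 of 43 members (74.4%) and in 17.9% of all 32851 promoters. TTCGAA lay in 3 members (6.98%) and in 1.56% of all promoters, and CCAAT in 32 members (74.4%) and in 37.4%. Either of the first pair together with CCAAT was found in 29 members (67.4%) and in 7.52% of all promoters. A match is a description of letters, not of a bound site. The 6 stretches below are the 250 bases before the start, 5′ to 3′ on the gene's strand, with matches in capitals; a match on the other strand reads TTCAAA or ATTGG. They belong to the mitotic kinase Cdk1, to its cyclin partner Ccnb2, to the APC/C activator Cdc20, to Cks1b and Kif11, whose genotype differences were unequal between the populations, and to Pttg1, the abundant member that did not pass the test in either genotype comparison.
Cdk1 (chr10:69352913-69353162, minus strand): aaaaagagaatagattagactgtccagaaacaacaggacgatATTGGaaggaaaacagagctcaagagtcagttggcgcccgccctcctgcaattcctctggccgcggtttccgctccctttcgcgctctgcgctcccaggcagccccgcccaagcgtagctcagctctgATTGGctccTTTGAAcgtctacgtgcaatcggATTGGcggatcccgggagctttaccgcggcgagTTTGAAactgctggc
Ccnb2 (chr9:70421555-70421804, minus strand): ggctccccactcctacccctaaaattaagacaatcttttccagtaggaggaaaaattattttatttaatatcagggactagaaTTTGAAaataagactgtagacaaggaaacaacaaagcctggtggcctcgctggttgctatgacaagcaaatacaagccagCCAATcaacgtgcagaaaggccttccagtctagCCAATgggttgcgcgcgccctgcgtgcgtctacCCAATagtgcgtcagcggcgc
Cdc20 (chr4:118437344-118437593, minus strand): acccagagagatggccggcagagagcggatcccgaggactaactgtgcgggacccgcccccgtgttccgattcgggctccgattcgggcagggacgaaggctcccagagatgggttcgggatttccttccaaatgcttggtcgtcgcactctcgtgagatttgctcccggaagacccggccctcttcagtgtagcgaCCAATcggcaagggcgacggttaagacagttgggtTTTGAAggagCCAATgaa
Cks1b (chr3:89418292-89418541, minus strand): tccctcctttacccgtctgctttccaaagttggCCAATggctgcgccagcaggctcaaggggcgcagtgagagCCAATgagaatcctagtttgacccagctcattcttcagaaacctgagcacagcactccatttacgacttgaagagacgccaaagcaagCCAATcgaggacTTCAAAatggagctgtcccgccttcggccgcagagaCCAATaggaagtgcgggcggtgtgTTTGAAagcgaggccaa
Kif11 (chr19:37376132-37376381, plus strand): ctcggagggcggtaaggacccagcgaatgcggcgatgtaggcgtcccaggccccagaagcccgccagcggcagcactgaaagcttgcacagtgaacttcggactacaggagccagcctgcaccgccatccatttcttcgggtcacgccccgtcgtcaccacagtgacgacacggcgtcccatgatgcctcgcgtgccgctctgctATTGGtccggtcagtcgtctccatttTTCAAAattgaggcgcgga
Pttg1 (chr11:43425982-43426231, minus strand): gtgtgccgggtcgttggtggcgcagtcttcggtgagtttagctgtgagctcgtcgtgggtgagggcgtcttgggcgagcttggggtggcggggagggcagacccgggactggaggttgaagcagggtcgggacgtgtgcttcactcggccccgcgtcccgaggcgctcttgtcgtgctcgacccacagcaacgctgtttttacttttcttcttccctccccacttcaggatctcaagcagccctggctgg
Cdk1 holds TTTGAA at 71 and 15 bases before the start and Cdc20 at 18 bases. None of the motifs was found in the windows of 7 members, Birc5, Melk, Ncaph, Nuf2, Nusap1, Pttg1 and Tacc3. Of these all but Pttg1 were called higher in TLR7.1 Mono, and Espl1, Kif23 and Racgap1, which were not called there, hold both TTTGAA and CCAAT. Few members were uncalled, and the Kif23 and Racgap1 libraries did not overlap between genotypes in Mono. Whether the motifs go with the calls was not tested.

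All 3 TLR7.1 groups held more mitotic RNA than both WT groups. Summed over the 51 members, WT Mono ran from 735 to 1656 CPM with a median of 1299. TLR7.1 Mono ran from 4614 to 8412 CPM with a median of 7024. WT RPM ran from 1048 to 2000 CPM. In TLR7.1 mice RPM ran from 3219 to 6495 CPM, and iHPC from 2353 to 3908. No TLR7.1 library of any type fell into the range of a WT group. Among the TLR7.1 groups Mono and RPM overlapped, as did RPM and iHPC, whereas every Mono library lay above every iHPC library. The sums are a description, with no test.

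**Figure D1:**
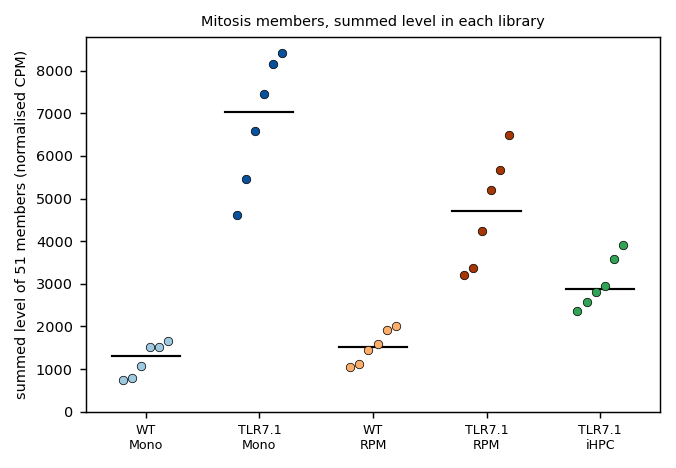
Summed level of the 51 members in normalised CPM (y axis, from 0) in each of the 30 libraries, by group (x axis); points are libraries and bars are group medians. The 6 TLR7.1 Mono libraries sit between 4614 and 8412, the 12 WT libraries at or below 2000.

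The genes shared an order across groups. Of the 51 members, 40 had their highest mean in TLR7.1 Mono and 9 in RPM of those mice, while 1 peaked in iHPC (Smc4) and 1 in WT RPM (Pttg1). The lowest mean fell in WT Mono for 24 members and in WT RPM for 24. The commonest full orders, with 13 members each, ran from Mono through RPM to iHPC of TLR7.1 mice, and then to the WT groups in either order. Many members were near the limit of detection in WT cells. With every library thinned to 95002 reads, a median of 33.5 of 51 members was detected in WT Mono and 28.5 in WT RPM, against 51 in Mono, 45 in RPM and 44 in iHPC of TLR7.1 mice.

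**Figure D2:**
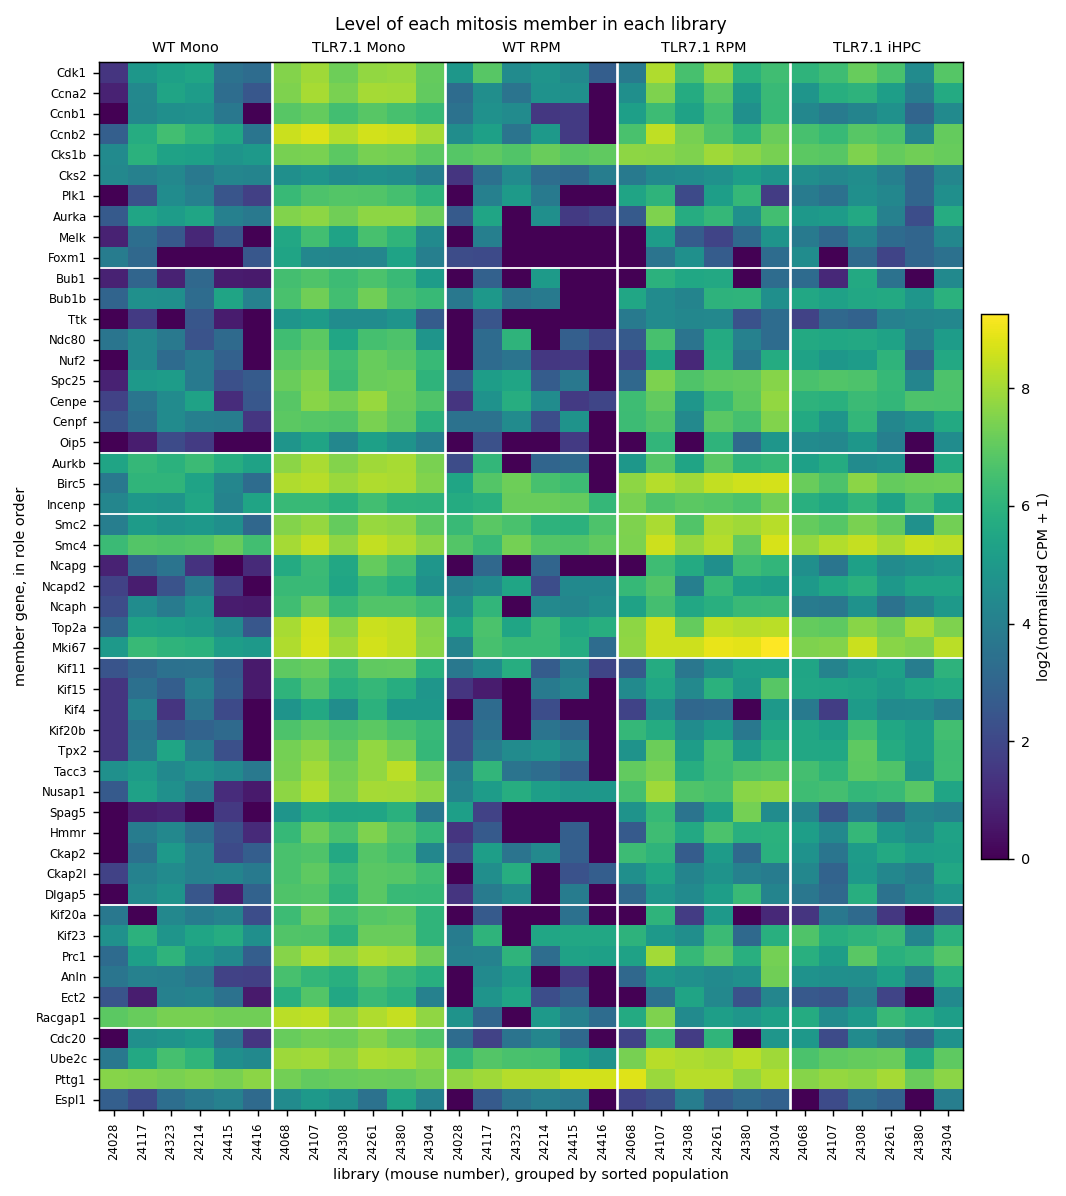
Level of each member (rows, grouped by role) in each library (columns, grouped by sorted population and labelled by mouse), as log2 of normalised CPM plus 1. Most rows are dark in WT libraries and bright in all 6 TLR7.1 Mono libraries, whereas Pttg1 is bright in all 30.

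In Ly6C-high monocytes, nearly the whole list was higher in TLR7.1 than in WT mice. Of 51 members 45 were called higher and 0 lower, where 1.80% of all genes tested were called higher. The median log2 fold change of the members was 3.11, beside -0.02 over all genes. In 46 members all 6 TLR7.1 libraries lay above all 6 WT libraries, which held for 3.04% of all genes; 0 members lay wholly below, as 1.13% of all genes did. Every member of the kinetochore, passenger, condensin and spindle lists was called.

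Cdk1, its cyclins and their regulators rose in 8 of 10 cases. Cdk1 itself ran from 1.71 to 42.2 CPM in WT Mono (median 19.5) and from 135 to 245 CPM in TLR7.1 Mono (median 200.2). Ccnb2, cyclin B2, ran from 5.99 to 87.7 CPM (median 49.2) and from 259.9 to 443 CPM (median 368). Neither gene's groups overlapped, and the log2 fold changes were 3.14 ± 0.56 (adjusted p = 0.000701) and 2.99 ± 0.47 (adjusted p = 0.000118). Cks1b, a small Cdk-binding subunit, was less variable, at 20.5 to 60.2 CPM in WT and 119.9 to 169 CPM in TLR7.1 Mono (log2 2.05 ± 0.19, adjusted p = 3.09e-08). Its paralog Cks2 was not called (log2 0.42 ± 0.34) and its groups overlapped, at 12.4 to 19.2 and 15.1 to 27.7 CPM. Foxm1, a transcription factor of late cell cycle genes, had groups that did not overlap but was not called (log2 2.53 ± 0.83, adjusted p = 0.14). It held 0 counts in 3 WT Mono libraries.

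All 9 checkpoint and kinetochore members rose. Spc25, of the Ndc80 complex that grips microtubules, ran from 0.855 to 33.4 CPM in WT Mono (median 9.08) and from 64.8 to 183 CPM in TLR7.1 Mono (median 141). Cenpe, a kinetochore motor, ran from 1.28 to 39.2 CPM (median 7.90) and from 104 to 225 CPM (median 148). Both sets of libraries were apart, with log2 fold changes of 3.11 ± 0.58 (adjusted p = 0.00099) and 3.51 ± 0.54 (adjusted p = 7.42e-05). The checkpoint kinase gene Bub1 (log2 4.64 ± 0.88) and Oip5, which helps load the centromeric histone (log2 4.65 ± 0.89), had some of the largest rises of the list. Their WT Mono medians were 0.845 and 0.327 CPM.

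All 3 listed members of the chromosomal passenger complex, which corrects faulty attachments, rose. Aurkb, its kinase, ran from 39.3 to 79.3 CPM in WT Mono (median 56.6) and from 167 to 269.6 CPM in TLR7.1 Mono (median 222). Birc5, or survivin, ran from 8.79 to 66.0 CPM (median 29.1) and from 179.9 to 308 CPM (median 275). Again no libraries overlapped (Aurkb log2 1.94 ± 0.47, adjusted p = 0.0143, and Birc5 log2 2.89 ± 0.41, adjusted p = 2.69e-05).

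All 7 members for condensin and chromosome structure rose. Smc4, a condensin ATPase, already stood at 77.8 to 137 CPM in WT Mono (median 107) and reached 199 to 345 CPM in TLR7.1 Mono (median 269). Top2a, the topoisomerase that untangles sister chromatids, went from 4.69 to 39.2 CPM in WT (median 26.5) to between 184 and 403 CPM (median 302). Mki67, the Ki-67 antigen on mitotic chromosomes, ran from 30.5 to 75.2 CPM (median 47.2) and from 197 to 412 CPM (median 313). The WT and TLR7.1 libraries of all 3 genes were apart. Their log2 fold changes were 1.38 ± 0.21 (adjusted p = 7.42e-05) for Smc4, 3.64 ± 0.36 (adjusted p = 3.86e-08) for Top2a and 2.66 ± 0.33 (adjusted p = 2.76e-06) for Mki67.

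Spindle motors and assembly factors rose in 12 of 12 cases, and the largest change of the list was among them. Spag5, or astrin, held 0 counts in 3 WT Mono libraries and at most 1.92 CPM in the others, against 12.1 to 57.7 CPM in TLR7.1 Mono (log2 5.86 ± 0.91, adjusted p = 7.42e-05). Nusap1, a microtubule stabiliser, ran from 0.586 to 38.6 CPM in WT (median 9.26) and from 167 to 294 CPM in TLR7.1 (median 228). Tacc3, which strengthens kinetochore fibres, ran from 12.3 to 32.7 CPM (median 22.2) and from 139 to 314.5 CPM (median 189.8). These 3 genes did not overlap between genotypes, and the log2 fold changes of the latter pair were 4.05 ± 0.47 (adjusted p = 9.01e-07) and 3.18 ± 0.43 (adjusted p = 1.21e-05).

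The late steps were less uniform. Of the 6 cytokinesis members 4 rose. Prc1, which bundles the central spindle, ran from 5.86 to 64.3 CPM in WT Mono (median 24.7) and from 150.2 to 281 CPM in TLR7.1 Mono (median 227; log2 3.04 ± 0.45, adjusted p = 3.88e-05). Racgap1, a centralspindlin subunit, was already the second most abundant member in WT Mono, at 121 to 164 CPM. It stood at 201 to 349.7 CPM in TLR7.1 Mono, without overlap, and was not called (log2 0.93 ± 0.35, adjusted p = 0.287). Kif23, its motor partner, also had groups apart and an adjusted p of 0.0502 (log2 1.41 ± 0.39).

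Of the 4 anaphase members, Cdc20 (log2 3.16 ± 0.68) and Ube2c rose. Ube2c, the ubiquitin-conjugating enzyme of the APC/C, ran from 12.0 to 91.9 CPM in WT (median 35.7) and from 202 to 276 CPM in TLR7.1 Mono (median 244; log2 2.45 ± 0.33, adjusted p = 1.38e-05), with no overlap. Securin, Pttg1, the inhibitor of separase, differed from the rest: it ran from 163 to 199.9 CPM in WT (median 182) and from 130.5 to 164 CPM in TLR7.1 Mono (median 143). These ranges touched, and the gene was not called (log2 -0.31 ± 0.16, adjusted p = 0.747). In a fit to these 2 groups alone it was called lower, at an adjusted p of 0.0369. Separase, Espl1, had 9.17 and 23.5 CPM on average and was not called (log2 1.33 ± 0.62).

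**Figure D3:**
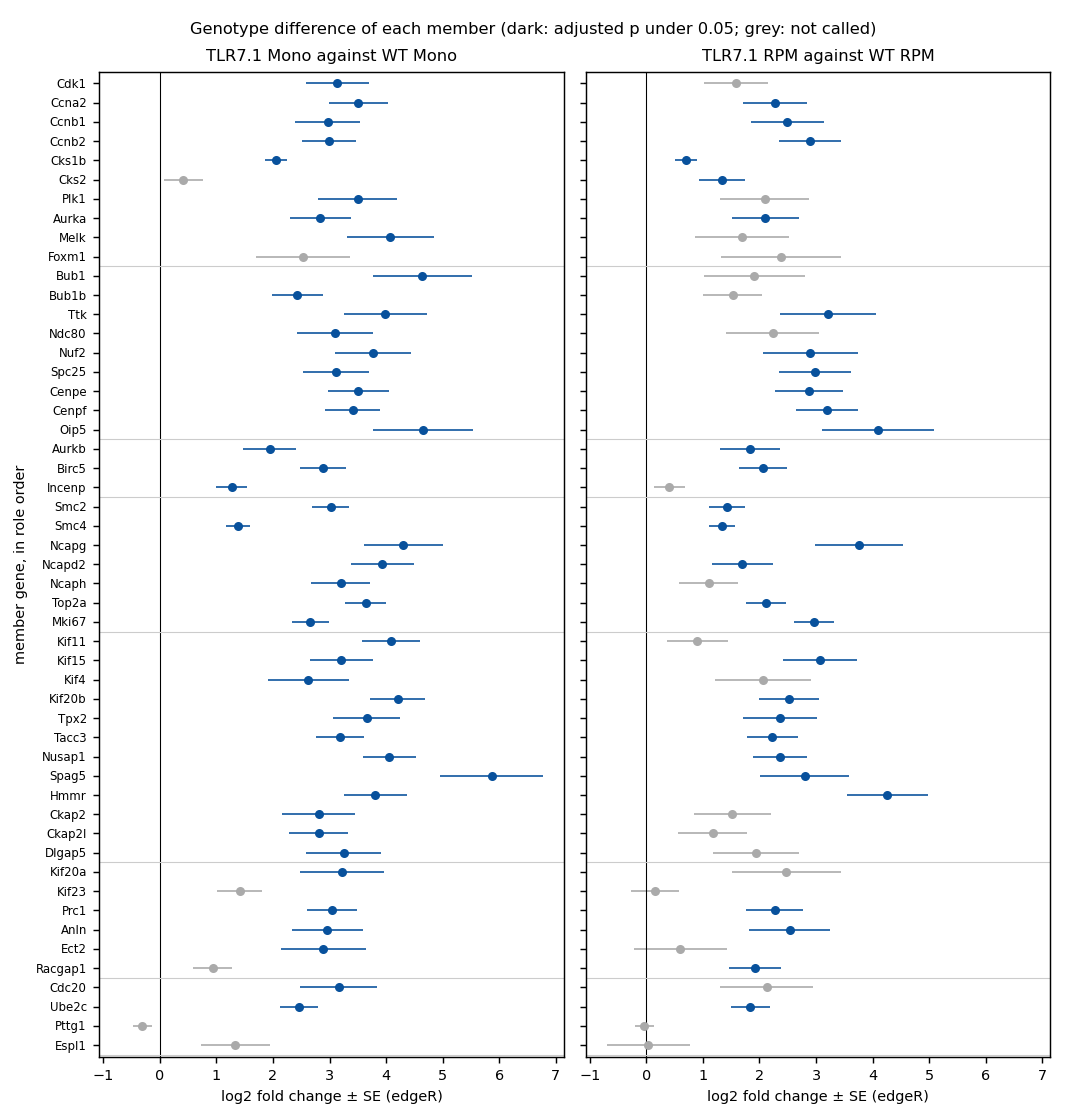
Log2 fold change ± SE (x axis) of each of the 51 members (y axis, in role order) between TLR7.1 and WT mice, in Mono on the left and RPM on the right; dark points were called at an adjusted p under 0.05. In Mono 45 points are dark and Pttg1 alone lies below 0; in RPM 31 are dark.

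The rise in monocytes was seen at each collection date. On 13 December the TLR7.1 Mono sums were 6592 and 8412 CPM and the WT sums 735 and 1528. On 21 December they were 4614 and 5455 against 1656 in the only WT library, and on 26 December 7455 and 8170 against 797 to 1525. With the date as a term in the model, 46 members were called higher. Of the 45 calls 43 held without each mouse in turn. Kif4, a chromosome-associated motor gene, lost its call when any of 8 mice was left out (24028, 24107, 24261, 24304, 24323, 24380, 24415 or 24416). Ect2, a cytokinesis gene, lost it without any of 24028, 24107, 24261, 24380, 24415 and 24416.

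Transcripts of neutrophil granules moved with genotype in the same libraries. Of 6 neutrophil genes tested 5 were called higher in TLR7.1 Mono, and the list of 11 summed to 481 to 2257 CPM against 249.8 to 473 CPM in WT Mono, where 6 of its genes were at 0. Ngp, a secondary granule gene, was at 0 in all WT Mono libraries, and in the TLR7.1 Mono libraries of mice 24304 and 24308, where Camp and Ltf were at 0 too. It held 1.98 CPM in mouse 24068, 38.8 in 24107, 389 in 24380 and 536 in 24261. Of 6 primary granule and progenitor genes 3 were called higher, and the list of 11 summed to 156 to 327 CPM against 53.2 to 133 CPM. Elane ran from 23.4 to 90.5 CPM in TLR7.1 Mono against 0 to 4.18 in WT Mono, and Prtn3 from 77.5 to 170.2 against 12.8 to 40.9, while Mpo reached at most 3.63 CPM and Kit 4.31. The libraries of mice 24304 and 24308, with no Ngp, Camp or Ltf, held the lowest member sums of the group, 4614 and 5455 CPM, and both lay above the highest WT Mono sum of 1656 CPM. They were also the only TLR7.1 Mono libraries collected on 21 December, so the date and the absence of Ngp cannot be told apart. They were not free of granule transcripts: Elane stood at 44.2 and 28.0 CPM, Prtn3 at 109.6 and 77.5, and S100a8 at 64.2 and 81.6, each above every WT Mono library (at most 4.18, 40.9 and 5.23 CPM). The 3 TLR7.1 Mono libraries with Ngp above 10 CPM (mice 24107, 24261 and 24380) held the highest member sums of the group, 7455 to 8412 CPM. Without them, 27 members were called higher, with a median log2 of 2.80, beside 0.573% of all genes called in either direction. Aurkb (adjusted p = 0.507), Oip5 (0.0512) and Spc25 (0.0676) were then not called. The part of the granule-bearing cells in the members' rise was not tested beyond this.

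**Figure D4:**
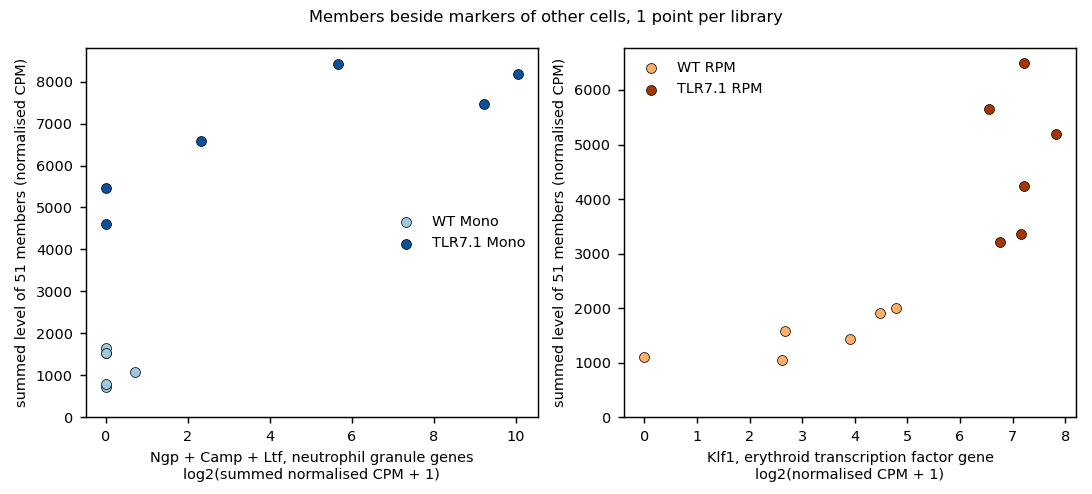
Summed level of the 51 members (y axis, normalised CPM from 0) beside markers of other cells (x axis, log2 of CPM plus 1), 1 point per library. On the left, the 2 TLR7.1 Mono libraries with no Ngp, Camp or Ltf stand at 4614 and 5455 CPM, above all WT Mono libraries; on the right, Klf1 does not exceed 26.4 CPM in WT RPM and runs from 93.3 to 225 CPM in TLR7.1 RPM.

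In red pulp macrophages the members were also higher in TLR7.1 mice, with more spread. Of 51 members 31 were called higher and 0 lower, where 4.48% of all genes were called higher and 3.77% lower, 8.25% in all. The median log2 fold change was 2.10, beside -0.01 over all genes. All 6 TLR7.1 libraries lay above all 6 WT libraries in 10 members, and in 1.08% of all genes. The largest rises were those of Hmmr, a spindle-associated hyaluronan receptor (log2 4.26 ± 0.72), Oip5 (log2 4.10 ± 0.98) and the condensin subunit Ncapg (log2 3.76 ± 0.78). These 3 had 3 or 4 WT RPM libraries at 0 counts.

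Of the Cdk1 list 6 of 10 rose. Cdk1 was not among them: it ran from 5.74 to 116 CPM in WT RPM (median 24.2) and from 13.0 to 288 CPM in TLR7.1 RPM (median 89.0), with wide overlap (log2 1.59 ± 0.56, adjusted p = 0.0741). Ccnb2 ran from 0 to 37.3 CPM (median 16.5) and from 63.8 to 329 CPM (median 123), without overlap (log2 2.89 ± 0.54, adjusted p = 0.000855). Cks1b ran from 107 to 140.5 CPM in WT RPM (median 121) and from 165 to 246 CPM in TLR7.1 RPM (median 201), also apart (log2 0.70 ± 0.19, adjusted p = 0.0204). That call was lost without mouse 24261. Cks2, not called in Mono, passed here at an adjusted p of 0.0358 (log2 1.34 ± 0.41). It was no longer called when any of 7 mice was left out, namely 24028, 24107, 24214, 24261, 24304, 24308 or 24415.

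Kinetochore genes rose in 6 of 9 cases. Spc25 ran from 0 to 42.8 CPM in WT RPM (median 8.68) and from 7.81 to 192 CPM in TLR7.1 RPM (median 128). Cenpe ran from 1.72 to 53.5 CPM (median 12.2) and from 28.2 to 216 CPM (median 101). Both overlapped through single libraries and were called (log2 2.99 ± 0.64, adjusted p = 0.00314, and log2 2.88 ± 0.60, adjusted p = 0.0026). Among passenger genes, Birc5 ran from 0 to 149.9 CPM in WT RPM (median 87.7) and from 206 to 409.7 CPM in TLR7.1 RPM (median 322), without overlap (log2 2.06 ± 0.42, adjusted p = 0.00203). Aurkb held a median of 5.32 CPM in WT RPM with 1 library at 68.8, and 28.6 to 119 CPM in TLR7.1 RPM (median 68.4; log2 1.83 ± 0.53, adjusted p = 0.0276). Its call was lost without any of 24028, 24107, 24214, 24261, 24415 and 24416. Incenp, the complex's scaffold, was not called (log2 0.41 ± 0.28).

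Chromosome structure genes rose in 6 of 7 cases. Mki67 ran from 8.61 to 93.9 CPM in WT RPM (median 63.4) and from 211 to 614.5 CPM in TLR7.1 RPM (median 423), the highest mean of any member in that group (log2 2.96 ± 0.35, adjusted p = 2.1e-06). Top2a ran from 42.8 to 99.1 CPM (median 50.2) and from 134 to 377 CPM (median 308; log2 2.11 ± 0.35, adjusted p = 0.000246). Neither gene's libraries overlapped. Smc4 ran from 77.2 to 161 CPM (median 108) and from 132 to 415 CPM (median 261), with overlap (log2 1.33 ± 0.23, adjusted p = 0.00033).

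Spindle genes rose in 7 of 12 cases. Nusap1 ran from 17.2 to 53.5 CPM in WT RPM (median 31.1) and from 91.1 to 243 CPM in TLR7.1 RPM (median 149.7), apart from each other (log2 2.36 ± 0.48, adjusted p = 0.00172). Tacc3 had a median of 9.85 CPM in WT RPM with a highest library at 68.2 CPM, and ran from 54.2 to 167 CPM in TLR7.1 RPM (median 108; log2 2.23 ± 0.45, adjusted p = 0.00186). Only that 1 WT library reached into the TLR7.1 range. Kif11, the bipolar spindle motor, was not called (log2 0.90 ± 0.53, adjusted p = 0.324).

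Cytokinesis genes rose in 3 of 6 cases. Prc1 ran from 9.00 to 64.2 CPM in WT RPM (median 26.7) and from 39.1 to 249.6 CPM in TLR7.1 RPM (median 96.1), overlapping (log2 2.27 ± 0.50, adjusted p = 0.00378). Racgap1 ran from 0 to 30.6 CPM (median 12.3) and from 20.6 to 178 CPM (median 36.6; log2 1.92 ± 0.46, adjusted p = 0.00733). The 178 CPM came from mouse 24107, and without that mouse the log2 fold change was 1.06 and the call was lost. Ube2c was the 1 anaphase gene of 4 that rose, at 25.8 to 111 CPM in WT RPM (median 82.1) and 164 to 319 CPM in TLR7.1 RPM (median 267), without overlap (log2 1.84 ± 0.34, adjusted p = 0.000811). Pttg1 ran from 213 to 396 CPM and from 215 to 445 CPM, with medians of 301 and 298 and a log2 fold change of -0.03 ± 0.17 (adjusted p = 0.936).

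The count in red pulp macrophages leaned on the fit and on single mice. Without mouse 24107, which held the highest value of 21 members among TLR7.1 RPM, 22 members were called, and 20 of 31 calls held without each mouse. In a fit to these 2 groups alone 35 members passed the filter and 12 were called. Of the 3 largest rises, that of Oip5 was not called with the mouse as a block (log2 2.41, adjusted p = 0.153). That fit used limma voom with a mouse correlation of 0.047 in place of edgeR. The change of method and the block cannot be told apart there.

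Transcripts of other cells also moved with genotype in the RPM gate. Of 20 erythroid genes tested 12 were called higher in TLR7.1 RPM, as were 4 of 9 plasma cell genes (1 was lower), 3 of 5 megakaryocyte, 1 of 3 basophil and mast cell and 1 of 16 B cell genes. The 21 erythroid genes summed to 534 to 6530 CPM in WT RPM and 4180 to 6531 CPM in TLR7.1 RPM, with 0 genes at 0 in either. Klf1, an erythroid transcription factor that precursors express, ran from 0 to 26.4 CPM in WT RPM and from 93.3 to 225 CPM in TLR7.1 RPM, with no overlap. The WT RPM library of mouse 24323, with 95002 counts, had an erythroid sum of 6530 CPM, Klf1 at 21.4 CPM and a member sum of 1916 CPM, within the WT range. Only mouse 24117 was higher in Klf1 and in member sum among WT RPM, at 26.4 and 2000 CPM. In TLR7.1 RPM the highest member sum, 6495 CPM, was that of mouse 24107. This library also held the group's highest Rhag (275 CPM), Kel (86.0), Cd3g (301) and Ngp (129). The highest Klf1, 225 CPM, was in mouse 24261, with a member sum of 5193 CPM. The 10 plasma cell genes summed to 71.7 to 1501 CPM in WT RPM and 183 to 3938 CPM in TLR7.1 RPM. The library with 183 CPM, from mouse 24380, had a member sum of 4246 CPM, above every WT RPM library. B cell genes summed to 642 to 2616 CPM in WT RPM (median 1285) and 1359.5 to 3861 CPM in TLR7.1 RPM (median 2949.5). T and NK cell genes summed to 51.6 to 427 CPM (median 108) and 23.3 to 2318 CPM (median 376). Neutrophil genes summed to 0 to 15.4 CPM (median 5.74) and 8.67 to 404 CPM (median 27.6). The part of erythroid, plasma and other cells in the members' rise was not tested.

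Called patterns in both genotype comparisons were set side by side. Of the 51 members 29 were called higher in both, 16 in Mono only, 2 in RPM only (Cks2 and Racgap1) and 4 in neither (Foxm1, Espl1, Pttg1 and Kif23). A call in one population and not the other is no difference between them, so the difference itself was tested as an interaction. It was called for 2 members, both with a smaller genotype effect in RPM, where 0.290% of all genes were called in that direction and 0.399% in the other. Cks1b differed by log2 -1.35 ± 0.27 (adjusted p = 0.00908), with effects of 2.05 in Mono and 0.70 in RPM. Its WT level was 35.7 CPM in Mono and 121 CPM in RPM on average. Kif11 differed by log2 -3.19 ± 0.72 (adjusted p = 0.0247), with effects of 4.09 in Mono and 0.90 in RPM. Its call was lost without any of mice 24117, 24261, 24308 and 24415. Without the 3 TLR7.1 Mono libraries with Ngp above 10 CPM neither was called (Cks1b log2 -1.20, adjusted p = 0.136, and Kif11 log2 -2.88, adjusted p = 0.203).

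Within TLR7.1 spleens, hemophagocytes held less of most mitotic transcripts than monocytes. Of 51 members 26 were called lower in iHPC and 1 higher, where 19.4% of all genes were called lower and 19.3% higher, 38.7% in all. The median log2 fold change was -1.30, beside 0.00 over all genes. In 20 members every iHPC library lay below every Mono library, which held for 17.8% of all genes; 0 lay wholly above, as 14.2% of all genes did. The largest falls were those of the cytokinesis motor gene Kif20a (log2 -4.34 ± 0.83, adjusted p = 7.7e-05), of Cdc20 (log2 -3.04 ± 0.69, adjusted p = 0.000608) and of Ect2 (log2 -2.79 ± 0.76, adjusted p = 0.00399).

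By role, members of the Cdk1 list fell in 6 of 10 cases, kinetochore members in 4 of 9, passenger members in 1 of 3, condensin and chromosome structure members in 2 of 7, spindle members in 6 of 12, cytokinesis members in 4 of 6 and anaphase members in 3 of 4. Differences between roles were not tested. Ccnb2 ran from 17.6 to 134 CPM in iHPC (median 96.3), below all Mono libraries (log2 -1.94 ± 0.45, adjusted p = 0.000926). Aurkb ran from 0 to 51.02 CPM (median 30.6; log2 -2.77 ± 0.49, adjusted p = 2.81e-05) and Racgap1 from 21.1 to 76.8 CPM (median 43.5; log2 -2.67 ± 0.38, adjusted p = 9.38e-07). Both lay wholly below Mono. Nusap1 at 42.3 to 116 CPM, Prc1 at 34.4 to 117 CPM, Tacc3 at 28.2 to 120.2 CPM and Ube2c at 49.3 to 142 CPM were also called lower without overlap. Tacc3 lost its call without mouse 24380.

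Some of the most abundant members did not pass the test between iHPC and Mono. Smc4 ran from 218 to 359 CPM in iHPC (median 309.9), Mono from 199 to 345, and it had its highest group mean in iHPC (log2 0.15 ± 0.21). Cks1b ran from 114 to 179 CPM (median 135; log2 -0.10 ± 0.19). Mki67 ran from 176 to 368 CPM (median 189), Top2a from 124 to 271 CPM (median 163), Birc5 from 102 to 199 CPM (median 142), Cdk1 from 21.1 to 137 CPM (median 89.2), Cenpe from 57.7 to 102 CPM (median 73.9) and Spc25 from 17.6 to 105 CPM (median 98.8). None of these 6 was called, although all iHPC libraries lay below all Mono libraries for Cenpe; in a fit to both groups alone Birc5, Cdk1, Cenpe and Top2a were. Pttg1 went against the list: it ran from 141 to 261 CPM in iHPC (median 202), partly above the 130.5 to 164 CPM of Mono, and was called higher (log2 0.49 ± 0.16, adjusted p = 0.0167). That call was lost without any of mice 24107, 24261 and 24308.

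Of the 27 calls, 16 held without each mouse. Without the 3 TLR7.1 Mono libraries with Ngp above 10 CPM, 11 members were called, all lower, with a median of -0.92; Ect2 (adjusted p = 0.0887), Nusap1 (0.0633), Prc1 (0.0678), Tacc3 (0.2), Ube2c (0.0922) and Pttg1 (0.164) were then not called. Basophil and mast cell genes, summing to 131 to 5004 CPM in iHPC against at most 10.8 CPM in TLR7.1 Mono, moved with this comparison. The iHPC library with 131 CPM, from mouse 24261, had a member sum of 2953 CPM, inside the range of the other 5. The same library held the highest sum of Ngp, Camp and Ltf among the iHPC libraries, 344 CPM. Megakaryocyte genes were called higher in iHPC in 5 of 5 cases, B cell genes in 5 of 16 and plasma cell genes in 3 of 9, with 1 lower. Erythroid genes were called higher in 15 of 20 cases, summing to 1240 to 3649 CPM there against 96.3 to 431 CPM in TLR7.1 Mono. Primary granule and progenitor genes summed to 0.925 to 649 CPM in iHPC (median 287), against 156 to 327 CPM in TLR7.1 Mono (median 190). Neutrophil genes summed to 19.5 to 1433 CPM in iHPC (median 225), against 481 to 2257 CPM in TLR7.1 Mono (median 705). The part of these cells in the members' levels was not tested otherwise.

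Red pulp macrophages of TLR7.1 mice were compared with the same Mono libraries, so the values below share their reference with those above. Of 51 members 17 were called lower and 2 higher in RPM, where 22.6% of all genes were called lower and 23.9% higher. The median was -0.91, beside -0.03 over all genes. Kif20a (log2 -2.43 ± 0.73), Racgap1 (log2 -2.20 ± 0.37) and Cdc20 (log2 -2.14 ± 0.66) had the largest falls. All 3 lay wholly below Mono, as did 9 members in all, where 14.6% of all genes did. Pttg1 (log2 1.04 ± 0.17, adjusted p = 3.64e-06) and Incenp (log2 0.85 ± 0.27, adjusted p = 0.00994) were higher, and both wholly above Mono, as 12.6% of all genes were. Incenp lost its call without mouse 24304. Without mouse 24380, 12 members were called, and without the 3 Mono libraries with Ngp above 10 CPM 5 were, with a median over the members of -0.63. Kif20a (log2 -2.11, adjusted p = 0.084) and Cdc20 (log2 -2.02, adjusted p = 0.0588) were then not called. None of the 7 chromosome structure members was called. Erythroid genes were higher in RPM in 20 of 20 cases, B cell genes in 14 of 16, plasma cell genes in 7 of 9, T and NK cell genes in 6 of 7 and megakaryocyte genes in 5 of 5, and their part in the members' levels was not tested.

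Between hemophagocytes and red pulp macrophages, the differences were smaller. Of 51 members 11 were called lower in iHPC and 0 higher, where 13.5% of all genes were called lower and 13.6% higher. The median was -0.54, beside 0.00 over all genes. Spag5 (log2 -2.04 ± 0.70), the condensin subunit Ncaph (log2 -1.78 ± 0.52) and Ccnb1, cyclin B1 (log2 -1.71 ± 0.58), had the largest falls among the called members. Kif20a, at log2 -1.91 ± 0.82, was not called (adjusted p = 0.0835). Ncaph, Ube2c, Incenp and Birc5 were the 4 members with every iHPC library below every RPM library, which 5.09% of all genes showed; 0 members lay wholly above, as 6.07% of all genes did. Pttg1 also fell (log2 -0.55 ± 0.16). Of the 11 calls, those of Incenp and Ube2c held without each mouse. Without mouse 24107 there were 3 calls, without 24261 4, and without 24304 or 24380 5 each. Spag5 was called neither without mice 24107, 24261 or 24380 nor with the mouse as a block (adjusted p = 0.0798), and Ccnb1 not without 24107, 24261 or 24304. Ncaph was not called without 24107, nor Pttg1 without 24068, nor Birc5 without 24107, 24261, 24304 or 24380. Erythroid genes were lower in iHPC in 12 of 20 cases, B cell genes in 10 of 16, T and NK cell genes in 5 of 7 and plasma cell genes in 4 of 9, with 1 higher. Basophil and mast cell genes were higher in 3 of 3 cases. The plasma cell sum had a median of 459 CPM in iHPC and 2317 CPM in TLR7.1 RPM. The primary granule and progenitor sum had medians of 287 CPM in iHPC and 22.1 CPM in TLR7.1 RPM. The neutrophil sum had medians of 225 and 27.6 CPM. The part of these cells was not tested.

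In wild-type mice, where both populations held little mitotic RNA, the 2 types differed in single genes rather than in the list. Of 51 members 9 were called higher and 2 lower in WT RPM than in WT Mono, where 23.7% of all genes were called higher and 22.5% lower. The median was 0.05, beside -0.02 over all genes. Cks1b (log2 1.77 ± 0.20, adjusted p = 6.51e-09), Top2a (log2 1.44 ± 0.36), Incenp (log2 1.71 ± 0.29), the condensin ATPase Smc2 (log2 1.92 ± 0.33) and Pttg1 (log2 0.77 ± 0.17) were wholly above Mono in RPM, which 11.1% of all genes were. The largest rises were those of Spag5 (log2 3.49 ± 1.01), the condensin subunit Ncapd2 (log2 2.20 ± 0.60) and Smc2. Spag5 rested on 1 library with 36.1 CPM: without that mouse, 24028, its log2 value was 0.71 and not called, and it was not called with the mouse as a block (adjusted p = 0.125). Racgap1 was lower (log2 -3.18 ± 0.45, adjusted p = 4.72e-07) and wholly below Mono, as 15.0% of all genes were. Aurkb was lower too (log2 -1.46 ± 0.52, adjusted p = 0.0207), a call that went when mouse 24028, 24214 or 24415 was left out. Erythroid genes were higher in WT RPM in 17 of 20 cases, B cell genes in 9 of 16, plasma cell genes in 4 of 9 and T and NK cell genes in 4 of 7, and their part was not tested.

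Per kilobase of exon, the leading members changed with the group. Pttg1 led in WT Mono (90.4 CPM per kb) and WT RPM (154 CPM per kb), and made up 14.8% and 20.3% of the members' summed CPM there. Ccnb2 led in TLR7.1 Mono with 231 CPM per kb, against 29.0 in WT Mono. Cks1b led in TLR7.1 RPM with 177 CPM per kb and in iHPC with 124 CPM per kb, each time before Pttg1 with 150.1 and 102 CPM per kb. The members with the highest share of summed CPM were Ccnb2 in TLR7.1 Mono (5.22%), Mki67 in TLR7.1 RPM (9.01%) and Smc4 in iHPC (10.0%).

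Other genes of the pathway were counted from lists of the same process. A list of 49 further mitosis genes, 47 of them tested, rose in 34 cases in TLR7.1 Mono and in 20 cases in TLR7.1 RPM against WT, with 0 falls in either. Of all genes, 1.80% were called higher in that Mono comparison and 4.48% in that of RPM. In Mono the called genes with the largest changes were Iqgap3 (19.9 ± 9.25 CPM against 0.452 ± 0.83 in WT, SD), Kif18b (19.3 ± 6.21 against 0.931 ± 1.26) and Cenpi (27.8 ± 13.0 against 1.26 ± 1.40). In RPM they were Kif2c (35.3 ± 55.7 against 0.956 ± 2.34 CPM), Nek2 (17.1 ± 17.7 against 0.30 ± 0.74 CPM) and Gtse1, with 0 counts in all WT RPM libraries. In iHPC against Mono 25 of the 47 fell and 0 rose, where 19.4% of all genes were called lower and 19.3% higher. Ncapg2, a condensin II subunit, set RPM apart: it averaged 214 ± 68.8 CPM in RPM, 34.1 in Mono and 30.1 in iHPC of TLR7.1 mice (log2 2.64 ± 0.39 for RPM against Mono, adjusted p = 1.17e-06), and 163 ± 56.5 CPM in WT RPM against 5.76 in WT Mono.

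S phase genes, which copy DNA before mitosis, did not keep the order of the mitotic members. Of 28 tested, 8 rose in TLR7.1 Mono and 12 in TLR7.1 RPM against WT, where 1.80% and 4.48% of all genes were called higher. Pole, a replicative polymerase subunit, rose by log2 4.23 ± 1.02 in Mono (8.43 ± 5.53 against 0.357 ± 0.57 CPM, SD), and Ccne1, cyclin E1, by log2 3.17 ± 0.82 in RPM. Their sum had a median of 493 CPM in Mono and 759 in RPM of WT mice. In TLR7.1 mice it was 1221 CPM in Mono, 2578 in RPM and 1275 in iHPC. Against TLR7.1 Mono, 12 were higher and 0 lower in RPM, where 23.9% of all genes were called higher and 22.6% lower. In iHPC 4 were higher and 1 lower, where 19.3% of all genes were called higher and 19.4% lower. Of the 51 mitotic members 17 were lower in RPM and 26 in iHPC.

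The 4 further lists are short, and their counts stand beside 1.80% of all genes called higher by genotype in Mono and 4.48% in RPM. Of 16 APC/C subunits and regulators tested, 1 rose in TLR7.1 Mono, Fbxo5, an APC/C inhibitor (log2 3.03 ± 0.61), and 0 changed in RPM. Of 12 cohesin genes Esco2, a cohesin acetyltransferase (log2 3.14 ± 0.75), and Rad21 (log2 0.81 ± 0.22) rose in Mono, and Stag2 fell in RPM (log2 -0.66 ± 0.19). Cdc25c, the phosphatase that activates Cdk1, was the 1 of 8 entry switch genes that rose in Mono (log2 2.46 ± 0.67). Of 10 genes of the DREAM and MuvB complexes, which bind the cell cycle homology region, 0 changed in Mono and 2 rose in RPM, Rbl2 (log2 1.21 ± 0.32) and E2f4 (log2 0.78 ± 0.23).

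**Figure D5:**
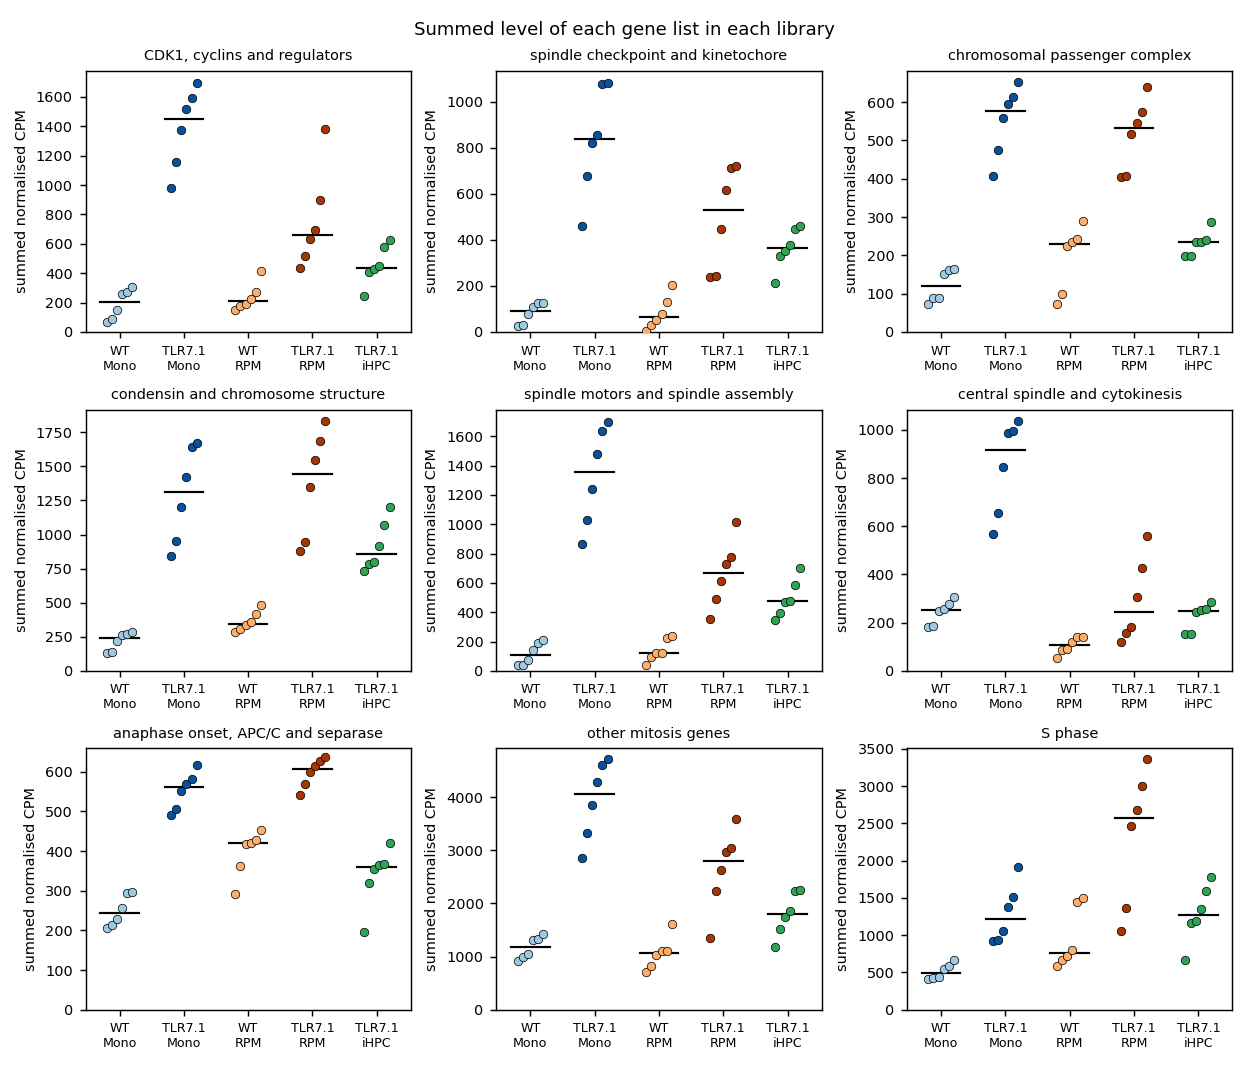
Summed level in normalised CPM (y axes, each from 0) of the 7 role lists of the members, of 49 other mitosis genes and of 28 S phase genes in each library, by group (x axes); bars are medians. TLR7.1 Mono has the highest median in 6 of the 9 panels; RPM of those mice has it for condensin and chromosome structure, anaphase and S phase genes, the last with 2578 against 1221 CPM.

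Some reads of the members could not be assigned to one gene with certainty. Kif20a shared 29.3% of its exon bases with Cdc23 on the other strand, Ube2c 22.8% with Tnnc2 (0 counts), Kif4 15.1% with Pdzd11, Ncapg 13.4% with Lcorl, Ccna2 12.5% with Exosc9 and Prc1 11.1% with Rccd1. Oip5, with 561 counts, shared 9.67% with Nusap1, another member, with 3555 counts. The remaining overlaps were smaller. Because no source used here gives the strand setting of the counting, reads in those stretches cannot be told apart. Ccnb1, Ccnb2 and Kif4 have near copies, Ccnb1-ps with 180 counts, Ccnb2-ps with 36 and Kif4-ps with 1.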

How the data were processed

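SMART-Seq v4 cDNA of 500 sorted cells went into each Nextera XT library, per the labels' protocols. The submitters' processing notes name CASAVA 1.8.2, HTSeq 0.4.1, Bowtie, TopHat, Picard, FastQC, SAMtools and the build NCBIM37, with no role or order. Annotation release and strand setting: not given in the sources used here. Whole-number counts per Ensembl gene, not normalized, were deposited for 30 libraries, with totals from 95002 to 1932427. Shallower libraries measure low genes less precisely. Symbols came from GENCODE M21 by identifier.

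The members and all lists were chosen with earlier results of these data known. edgeR 4.0.16 (limma 3.58.1, R 4.3.3) with filterByExpr and TMM scaling fitted 1 mean per group to all 30 libraries, and the quasi-likelihood test was adjusted by Benjamini-Hochberg over 11030 genes. SE is the absolute log2 fold change divided by the square root of F. P-values measure the spread between libraries of the same group, each from a different mouse. They take libraries of 1 mouse in different groups as independent. The script was tested on simulated data. The named members were the 2 of each of 7 roles with the highest mean CPM, Mki67, Top2a and Cdk1, plus the 3 largest called rises and falls per comparison and any call against the direction of most. Of the other lists up to 3 called genes were named. Smc2, Kif4, Ect2 outside its comparison, Cks2, Foxm1, Incenp, Kif23, Espl1 and other members beyond this rule were named after their values were seen.

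The labels name the mouse of each library, so libraries of 1 mouse are paired. Residuals of libraries from the same mouse correlated at -0.077 to 0.209, and 3 of 24 pairs exceeded 0.1; over the members alone they ran from -0.194 to 0.388, with 11 of 24 pairs over 0.1. The main fit left the mouse out and an alternative had it as a block. For the genotype comparisons that alternative was limma voom with libraries of 1 mouse correlated. For the other comparisons it was edgeR with a term for each mouse. Other alternatives were RLE scaling, no filter, only the groups compared, leaving out each mouse, collection day as a term, thinning to 95002 reads and DESeq2 1.42.0. One more, leaving out TLR7.1 Mono libraries with Ngp above 10 CPM, was chosen after seeing the data.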

Additional observations from a re-analysis of the deposited data

Results flagged for a closer look

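Single libraries stood far from the other 5 of their group in 4 of the 85 groups of values examined, and chance alone flags about 1 in 20. In WT RPM, mouse 24117 held the highest value of Aurkb (68.8 CPM), Cdk1 (116 CPM) and Tacc3 (68.2 CPM), and its library was the deepest of that group, with 1511480 counts. In TLR7.1 RPM, mouse 24107 held the highest Racgap1 value, 178 CPM.

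Genotype effects that differed between populations by the interaction test were those of Cks1b, -1.35 on the log2 scale, and Kif11, -3.19, both smaller in RPM than in Mono.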

How the results depend on the processing

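Of 2088 recomputed values of named members, 1959 stayed on the same side of the threshold, 91 lost and 37 gained a call, and 1 reversed. A change of direction was counted only where the main or the recomputed value was called. The reversed value was Tacc3 in WT RPM against WT Mono, at -1.36 on the log2 scale without mouse 24117 (adjusted p = 0.0203). Its values without 1 mouse at a time ran from -1.36 to 0.24. With the mouse as a replicate block, members called numbered 8 for iHPC against RPM, 33 for iHPC against Mono, 27 for RPM against Mono, 12 in WT, 48 and 28 for genotype in Mono and RPM, and 2 for the interaction, each within 1.5 times the count without the block. The 48 and 28 came from limma voom, so method and block changed together. Leaving out 1 mouse at a time gave 3 to 11 calls for iHPC against RPM, 18 to 27 for iHPC against Mono, 12 to 19 for RPM against Mono, 8 to 12 in WT, 43 to 46 and 22 to 37 for genotype in Mono and RPM, and 1 to 3 for the interaction. Thinned to 95002 reads, 23 members passed the filter, so fewer could be called: 5, 14, 8, 9, 19, 14 and 0 in the same order. In a fit to the compared groups alone, the RPM genotype count was 12, with 35 members tested. Without the TLR7.1 Mono libraries holding Ngp above 10 CPM the counts were 11 for iHPC against Mono, 5 for RPM against Mono, 27 for genotype in Mono and 0 for the interaction; fewer libraries also lowered the share of all genes called, from 2.10% to 0.573% for genotype in Mono. RLE scaling, no filter, collection day and DESeq2 kept every count within 1.5 times. DESeq2 called 11, 30, 21, 14, 46, 33 and 3 members in the order above. Depth limits the low members most, but the number of members detected did not run in the order of depth. The fewest, 21 of 51, were detected in the WT RPM library of mouse 24416, with 359615 counts. The shallowest library, WT RPM of mouse 24323 with 95002 counts, held 34.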
